A study of Saccharomyces cerevisiae with 10 samples.

Results

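The peaks described here are the stretches of accessible chromatin that lie near the ends of the 16 chromosomes of the yeast *Saccharomyces cerevisiae*. Of the 3515 merged ATAC-seq peaks, 306 were chosen because they start within 30000 bases of the leftmost peak edge of their chromosome, or end within 30000 bases of its rightmost peak edge. They are called end peaks below, and the remaining 3209 are called the other merged peaks. The choice used positions only and no accessibility value. ATAC-seq uses the Tn5 transposase, which inserts sequencing adaptors where DNA is not covered by nucleosomes, so a less compact chromatin gives more reads.

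All libraries came from WP35, a haploid W303 strain of mating type MATalpha that carries the fluorescent reporter HO::HIS3::pGAL1-YFP at the ho locus and the mutant alleles of ADE2, CAN1, HIS3, LEU2, TRP1 and URA3 that mark the W303 background. In the evolution experiment the cells with the lowest YFP signal were sorted daily through Day 7, and the population then grew without selection until Day 28. Frozen populations of Day 0 (before selection), Day 3 and Day 7 (under selection), and Day 10 and Day 28 (after it) were revived on glucose plates, grown for 22 h in 0.1% mannose and induced for 24 h in 0.1% mannose with 0.2% galactose. Each day has 2 libraries, 10 in all. Every library came from 1 evolution replicate, named L3, so the p-values between days carry no information on how populations evolved in parallel would vary, and nothing in the labels says that the 2 libraries of a day are separate cultures. A bulk library also cannot tell a higher share of cells with open chromatin from more open chromatin in each cell.

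Yeast chromosome ends carry short irregular repeats of TG and CA bases that Rap1 binds. Rap1 recruits the Sir proteins, which silence nearby chromatin, while the Rif proteins limit telomere length and the Ku complex helps protect the end. Inside the repeats lies the X element, whose core holds a consensus of replication origins (ARS consensus sequence) and a site for the factor Abf1, and many ends also carry a longer Y′ element with a helicase gene of the YRF1 family. The adjoining subtelomeric stretch holds gene families that differ between strains, among them the seripauperins (PAU, cell wall proteins), the COS genes, the flocculins (FLO, cell surface adhesins) and genes for the use of rarer sugars, iron and vitamins. Reads were mapped to R64, the reference assembly of another laboratory strain, so the ends of W303 may hold other repeats than the annotation lists.

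The most even change among the end peaks was found where a peak overlaps a telomere annotated in R64, meaning the stretch that holds the TG repeats with the X and Y′ elements. To show what these peaks share, 8 of the 20 matches to the ARS consensus sequence that lie in both a peak and a telomere are printed as windows of 55 bases, each running from 22 bases before to 22 bases after the match, which is in capitals. The coordinates and the sequences are those of R64 as distributed by RefSeq.
TEL15L, chrXV:777-831, minus strand: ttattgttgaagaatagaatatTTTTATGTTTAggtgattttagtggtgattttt
TEL12R, chrXII:1064297-1064351, plus strand: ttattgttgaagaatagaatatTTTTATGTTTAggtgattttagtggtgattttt
TEL06L, chrVI:5460-5514, minus strand: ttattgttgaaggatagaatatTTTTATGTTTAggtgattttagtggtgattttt
TEL14L, chrXIV:7358-7412, minus strand: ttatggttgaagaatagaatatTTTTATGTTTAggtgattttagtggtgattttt
TEL08L, chrVIII:5435-5489, minus strand: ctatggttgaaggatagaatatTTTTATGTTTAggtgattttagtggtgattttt
TEL07R, chrVII:1083651-1083705, plus strand: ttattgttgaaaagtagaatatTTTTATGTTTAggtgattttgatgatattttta
TEL06R, chrVI:269748-269802, plus strand: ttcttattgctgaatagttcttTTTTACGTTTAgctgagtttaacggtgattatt
TEL02L, chrII:59-113, plus strand: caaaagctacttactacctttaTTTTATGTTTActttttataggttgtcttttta
All windows but that of TEL06R carry the same 11-base match, as do 18 of the 20 in all, and the windows of TEL15L and TEL12R are identical over all 55 bases although they lie on different chromosomes. Of the 19 other windows, 16 were over 80% identical to that of TEL15L. The TEL06R window was 74.5% identical to it, and the TEL02L window, which lies at the outer tip of that telomere, was the least similar at 52.7%.

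Searched on both strands, the ARS consensus sequence was found in 20 of 28 telomere-annotated peaks (71.4%), in 1 of the 40 other peaks within 5 kb of the outermost edge (2.5%), in 13.1% of the end peaks and in 9.19% of all merged peaks. Peaks differ in length, and in the central 300 bases alone the shares were 35.7% of the telomere-annotated peaks and 3.02% of all merged peaks. CACCCA, the core of Rap1 sites, was in 71.4% of the telomere-annotated peaks and 31.6% of all merged peaks, and TTAGGG, the Tbf1 site, in 46.4% and 24.6%. In the central 300 bases CACCCA was in 32.1% of the telomere-annotated peaks and 10.5% of all merged peaks, but TTAGGG was in 10.7% and 7.68%. A stretch from the very tip of TEL12L is printed to show the repeats that carry CACCCA, here in capitals. It is the whole YLL067W-A peak of 260 bases, which starts at base 32 of chromosome XII.
YLL067W-A peak at TEL12L, chrXII:32-291, plus strand: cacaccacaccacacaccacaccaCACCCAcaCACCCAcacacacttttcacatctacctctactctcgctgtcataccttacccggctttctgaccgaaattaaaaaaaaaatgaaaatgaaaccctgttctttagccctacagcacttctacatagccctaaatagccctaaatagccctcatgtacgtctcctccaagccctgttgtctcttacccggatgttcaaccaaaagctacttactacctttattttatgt
A match to such letters is a description of the sequence, and no match says only that the letters are not in that window.

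The end peaks number 4 to 13 at each of the 32 chromosome ends, and 64 of them lie at 0-5 kb from the outermost peak edge, 46 at 5-10 kb, 98 at 10-20 kb and 98 at 20-30 kb. The outermost peak lies 20 to 37601 bases from the end of the R64 chromosome, with a median of 5127.5, so at some ends the bins start well inside the chromosome. By the deposited annotation, 217 end peaks lie at promoters, 53 at transcription end sites, 21 in exons and 15 between genes. Gene names below are those of the annotated nearest promoter, and a peak may lie over another gene. Reads from near-identical copies cannot be placed with certainty, and 43 of the 306 end peaks hold at least 1 window of 100 bases that occurs again in R64, against 100 of the 3209 other merged peaks.

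The libraries held 4748625 to 18693542 counts in peaks, and no end peak had fewer than 53 reads in any library. Counting noise alone would give a chi-square near 1 per end peak between the 2 libraries of a day, and it was 8.02 at Day 7 to 18.5 at Day 10, so the replicates limit the precision more than depth does. Reads of Day 3, Day 28 and replicate 2 of Day 10 came from 2 sequencing runs, and those of the remaining libraries from 1. Outside Day 10 the number of runs and the day therefore cannot be told apart. Values per library below are normalized counts, the deposited counts divided by 1 size factor per library. They are not per length and are compared only within a peak. A peak is called where edgeR's quasi-likelihood test gives a Benjamini-Hochberg adjusted p below 0.05 over all 3515 peaks, and fold changes are on the log2 scale with the later day over the earlier one. Consecutive comparisons share the libraries of the day between them.

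Between Day 0 and Day 3, when selection began, 77 of the 306 end peaks were called (25.2%), beside 18.6% of all merged peaks. Of these, 70 rose and 7 fell, against 9.59% of all peaks that were called higher and 8.99% called lower. The calls were densest at the outer edge. Within 5 kb, 31 of 64 peaks rose and 0 fell, with 8 rises and 1 fall of 46 at 5-10 kb, 20 and 2 of 98 at 10-20 kb, and 11 and 4 of 98 at 20-30 kb. The median log2 fold change was 0.29 within 5 kb, 0.06, 0.09 and 0.04 in the next 3 bins, and -0.03 over the other merged peaks. Without replicate 2 of Day 3 the calls dropped to 31 end peaks (10.1%, beside 3.41% of all peaks). Scaling by total counts, which moved the median of all peaks by -0.21, gave 38 rises and 29 falls among the end peaks. The share of end peaks called was then 21.9%, below the 30.2% of all merged peaks, so the excess of calls depended on the scaling.

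**Figure D1:**
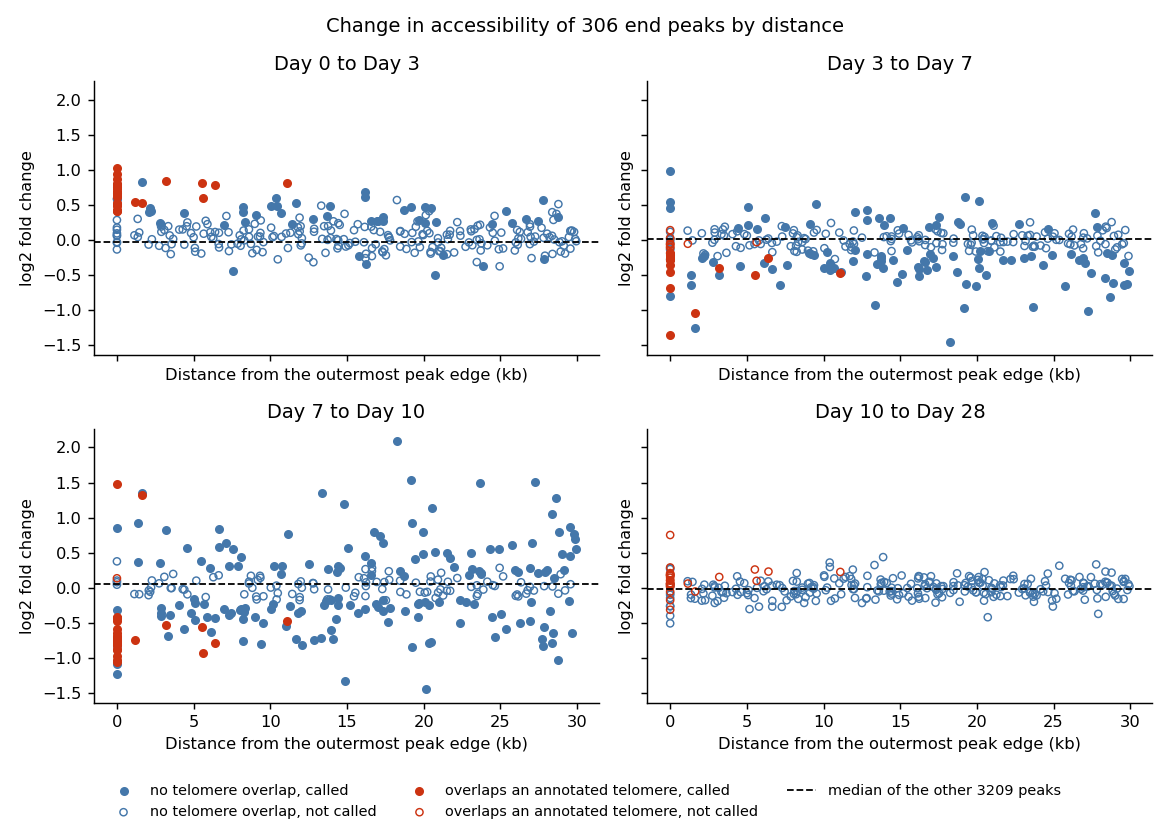
Log2 fold change of each of the 306 end peaks (y axis) against its distance from the outermost peak edge in kb (x axis) for the 4 consecutive comparisons; filled points were called by edgeR, red points overlap an annotated telomere, and the dashed line is the median of the 3209 other merged peaks. From Day 0 to Day 3 all 28 red points lie at 0.41 or higher, and from Day 10 to Day 28 no point is filled.

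Of the 70 end peaks that rose, 28 overlap an annotated telomere, and no other end peak overlaps one. This grouping was made after the values were seen, so it is given by counts and medians only. All 28 rose between Day 0 and Day 3, by 0.41 to 1.02 with a median of 0.68, and in all 28 the lower Day 3 library was above the higher Day 0 library, which held for 34.1% of all merged peaks. Their median normalized count was 3953 and 4790 in the Day 0 libraries, 6925 and 7647 at Day 3, 6624 and 5640 at Day 7, 4059 and 3300 at Day 10, and 3520 and 4550 at Day 28. The Day 3 and Day 7 libraries were thus all above those of the other days, which overlap each other. In the deposited counts these peaks took 0.981% and 1.09% of all reads in peaks at Day 0, 1.44% and 1.50% at Day 3, 1.29% and 1.19% at Day 7, 1.03% and 0.898% at Day 10, and 0.919% and 1.09% at Day 28, a share that does not depend on the size factors. Leaving out 1 library at a time left 19 of 28 calls (without replicate 2 of Day 3) to 27, with medians of 0.54 to 0.82, and scaling by total counts left 24 rises with a median of 0.49. The 40 other peaks within 5 kb had 7 rises and a median of 0.13. Without the 28 peaks the end peaks had 42 rises and 7 falls, or 17.6% called, near the 18.6% of all peaks.

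**Figure D2:**
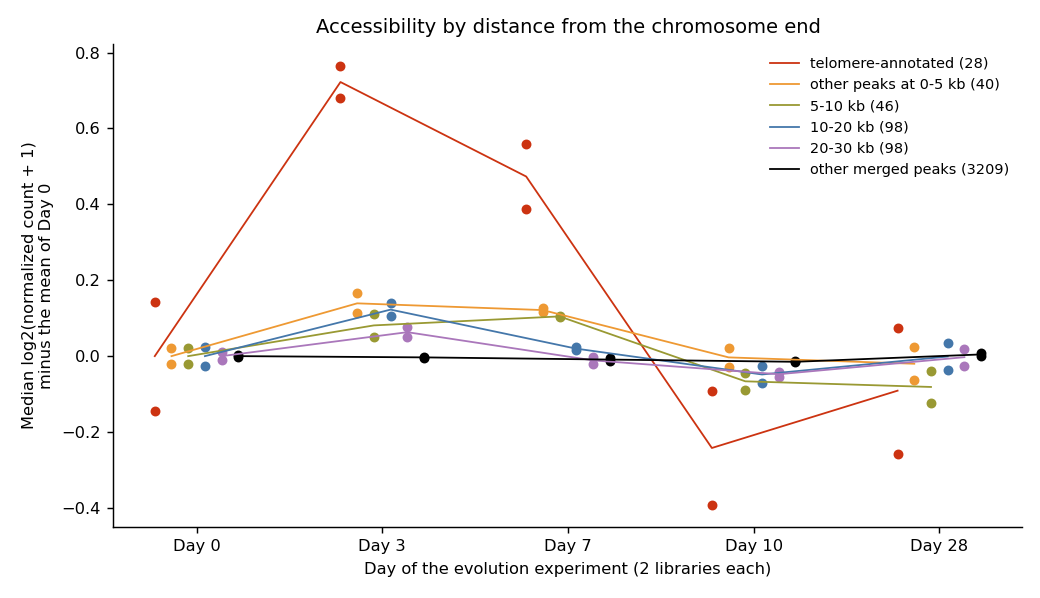
Median of log2(normalized count + 1) in each library minus the mean of the Day 0 libraries (y axis) by day (x axis), for the 28 telomere-annotated peaks, the other 40 peaks within 5 kb, the further distance bins (which hold 4 of the 28) and the other merged peaks; points are libraries and lines join the means of 2. The telomere-annotated peaks stood 0.72 above Day 0 at Day 3 and 0.47 above it at Day 7, and at -0.24 at Day 10.

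R64 annotates 32 telomeres, and 21 of them were overlapped by a peak, 12 of the 17 with a Y′ element and 9 of the 15 without. The YLL067W-A peak at TEL12L, printed above, had normalized counts of 6553 and 8413 at Day 0 and of 12751 and 15015 at Day 3, a rise of 0.87 ± 0.17 (SE, adjusted p = 3.63e-05 by edgeR's quasi-likelihood test with Benjamini-Hochberg adjustment), which without replicate 2 of Day 3 was not called (0.74, adjusted p = 0.0679). The YFL063W peak at TEL06L (chrVI:4000-5579), which holds the third window above, went from 7443 and 9035 to 13812 and 16067, or by 0.83 ± 0.18 (adjusted p = 0.00019). The YOL166W-A peak at TEL15L (chrXV:50-1044), which holds no repeated window of 100 bases, went from 5090 and 6779 to 9988 and 10856, or by 0.79 ± 0.15 (adjusted p = 1.07e-05). In each of these peaks the libraries of the 2 days do not overlap.

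The largest rises among all end peaks were in smaller peaks of the same kind. The YLR466C-B peak at TEL12R (chrXII:1071530-1071850) had 545 and 762 normalized counts at Day 0 and 1388 and 1319 at Day 3, a rise of 1.02 ± 0.11 (adjusted p = 3.70e-17 by edgeR's quasi-likelihood test), and 59.9% of its windows are repeated elsewhere. The YRF1-2 peak at TEL05R (chrV:571595-571742), which lies in the Y′ helicase gene YRF1-2 and has no repeated window, had 224 and 328 at Day 0 and 536 and 549 at Day 3, a rise of 0.94 ± 0.19 (adjusted p = 2.33e-05). The COS6 peak at TEL07R (chrVII:1082732-1084491), named for a COS gene, had 5551 and 6776 at Day 0 and 9273 and 9952 at Day 3, a rise of 0.62 ± 0.15 (adjusted p = 0.000731). All 5 telomere-annotated peaks without a repeated window rose, by 0.42 to 0.94 with a median of 0.53. The 14 with under 5% of repeated windows, which include these 5, had a median of 0.58 and the 14 with more had 0.77. All 20 with an ARS consensus sequence rose with a median of 0.65, and so did all 8 without, with a median of 0.81. At 16 end peaks over annotated origins outside the telomeres, 0 were called between Day 0 and Day 3, with a median of 0.03. Of the 208 other merged peaks over origins 12 rose and 33 fell, or 21.6% called, near the 18.6% of all merged peaks. With only 16 peaks, the 0 calls do not set the end origins apart from that share.

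Fold changes followed the count of a peak across the genome, so the telomere-annotated peaks were also set beside other merged peaks of like count. Between Day 0 and Day 3 the median of the other merged peaks was -0.20 in peaks with 500 to 1000 mean normalized counts and 0.37 in those with 8000 or more. Of the telomere-annotated peaks, 16 have mean counts of 4000 to 8000, where their median was 0.67 beside 0.16 for 513 other merged peaks, whose 95th percentile was 0.47. The 4 with 8000 or more had a median of 0.81, beside 0.37 for 314 other merged peaks with a 95th percentile of 0.59. Offsets fitted by loess on abundance left all 28 called as rises with a median of 0.54.

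**Figure D3:**
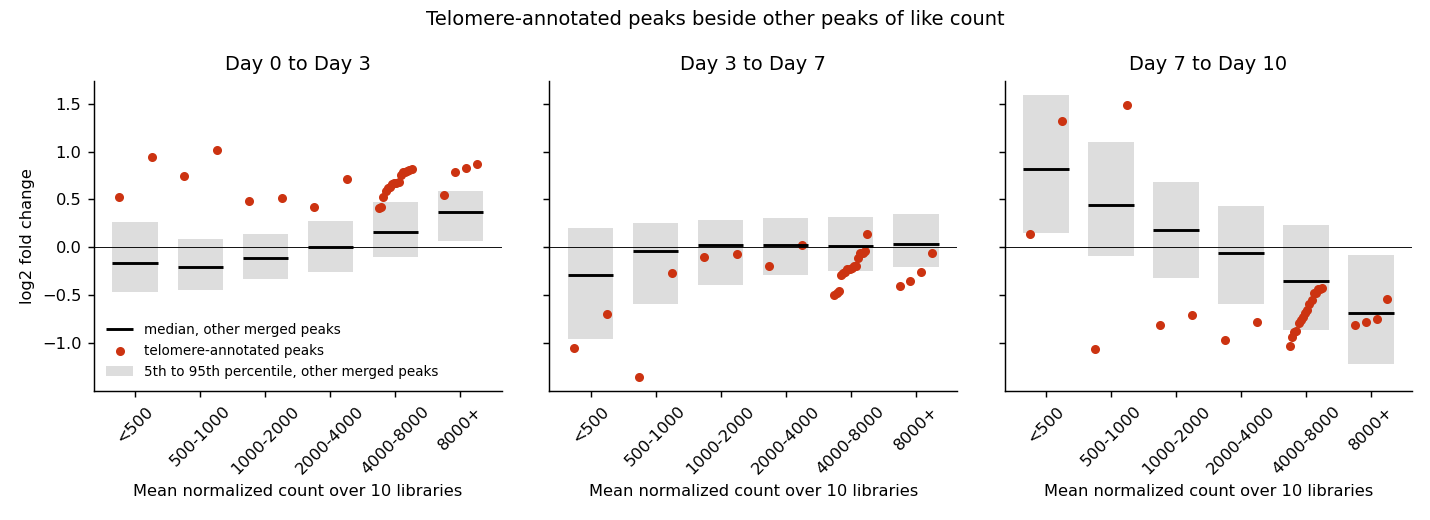
Log2 fold change (y axis) of the telomere-annotated peaks (red points) in 6 classes of mean normalized count over 10 libraries (x axis), with the median (line) and the 5th to 95th percentile (grey bar) of the other merged peaks of that class. From Day 0 to Day 3 the red points of the class 4000 to 8000 have a median of 0.67 against 0.16 for the grey bar, and from Day 7 to Day 10 they lie at -0.67 against -0.36.

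Between Day 3 and Day 7, with selection still applied, 127 end peaks were called (41.5%), beside 32.1% of all merged peaks. They comprised 30 rises and 97 falls, against 14.7% of all peaks called higher and 17.4% called lower. Falls outnumbered rises in every bin, with 24 against 4 within 5 kb, 9 against 7 at 5-10 kb, 36 against 13 at 10-20 kb and 28 against 6 at 20-30 kb. Of the 28 telomere-annotated peaks, 18 fell and 0 rose, with a median of -0.22. The counts rest on Day 7, since fewer end peaks and fewer telomere-annotated peaks were called without either of its libraries. The share of all merged peaks called also varied widely over left-out libraries, with the ranges given below. Compared with Day 0, the Day 7 libraries had 79 end peaks higher and 56 lower, 44.1% beside 45.1% of all merged peaks, of which 20.5% were called higher and 24.6% lower. Scaling by total counts, under which the median of all peaks was at -0.24, turned this into 34 higher and 119 lower, and loess offsets gave 99 and 44. The telomere-annotated peaks were higher at Day 7 than at Day 0 in 24 of 28 and lower in 2, with a median of 0.45, or 0.21 with 19 called higher after loess. Without replicate 1 of Day 7 there were 9 calls among them in place of 26. Among all end peaks fewer were called without either library of Day 7 and more without replicate 2 of Day 0. Here too the share of all merged peaks called varied widely over left-out libraries.

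Between Day 7 and Day 10, the first days without selection, 195 end peaks were called (63.7%), beside 70.2% of all merged peaks. They comprised 78 rises and 117 falls, where 37.4% of all peaks were called higher and 32.8% lower. The falls lay toward the end, with 35 falls and 9 rises within 5 kb, 22 and 9 at 5-10 kb, 34 and 26 at 10-20 kb, and 26 and 34 at 20-30 kb. Of the telomere-annotated peaks 25 fell and 2 rose, with a median of -0.72, and in 25 the higher Day 10 library was below the lower Day 7 library, which held for 44.6% of all merged peaks. The YFL063W peak at TEL06L had 11909 and 10548 normalized counts at Day 7 and 8323 and 6742 at Day 10, and fell by 0.54 ± 0.12 on the log2 scale (adjusted p = 0.000957 by edgeR's quasi-likelihood test). Peaks of high count had negative medians across the genome in this comparison. The 16 telomere-annotated peaks of 4000 to 8000 counts had a median of -0.67 beside -0.36 for the other merged peaks of that class, and the 4 of 8000 or more had -0.76 beside -0.68. These medians lie above the 5th percentiles of the other merged peaks of their classes, -0.87 and -1.21, so they are within the spread of peaks of like count. After loess offsets 21 of the 28 fell and 2 rose, with a median of -0.32. Scaling by total counts gave 174 rises and 56 falls among the end peaks, with the median of all peaks at 0.36, and still 22 falls and 2 rises among the telomere-annotated ones. Without the telomere-annotated peaks, 76 end peaks rose and 92 fell (60.4% called).

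Of the 28 telomere-annotated peaks, 3 had a positive log2 fold change between Day 7 and Day 10, all with low counts and over open reading frames in telomeres with a Y′ element. The YRF1-2 peak was not called, with 334 and 335 normalized counts at Day 7 and 319 and 391 at Day 10 (0.14, adjusted p = 0.513 by edgeR's quasi-likelihood test). The YFL067W peak at TEL06L (chrVI:800-1500) had 1036 and 991 normalized counts at Day 3, 412 and 381 at Day 7, and 932 and 1212 at Day 10. It fell by 1.35 ± 0.11 to Day 7 (adjusted p = 2.01e-17 by edgeR's quasi-likelihood test) and rose by 1.48 ± 0.13 to Day 10 (adjusted p = 9.67e-07). The YBL113C peak at TEL02L (chrII:1693-1941) had 456 and 450 at Day 3, 221 and 216 at Day 7, and 455 and 596 at Day 10. These last peaks were lowest at Day 7, and no other telomere-annotated peak was lower at Day 7 than at Day 0. The YBL113C peak has a mean of 407 normalized counts, and the other merged peaks under 500 counts had a median of 0.82 between Day 7 and Day 10.

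Between Day 10 and Day 28, both without selection, no end peak was called and 0% of all merged peaks were. Among the end peaks 10 had an unadjusted p below 0.05 by edgeR, and DESeq2, which gave an adjusted p for 31 of them, called 1. From Day 0 to Day 28, 31 end peaks were called (10.1%), beside 8.82% of all merged peaks, with 21 higher and 10 lower at Day 28, where 4.52% and 4.3% of all peaks were. The bin of 5-10 kb held 0 of these calls, and the telomere-annotated peaks held 2, both higher, at YFL067W and YBL113C. The median of the 28 was -0.07. Loess offsets gave 18 end peaks higher and 17 lower. These counts turn on replicate 1 and 2 of Day 28 and replicate 2 of Day 0. Fewer end peaks and telomere-annotated peaks were called without replicate 1 of Day 28 or replicate 2 of Day 0, and more without replicate 2 of Day 28. The share of all merged peaks called also varied widely over left-out libraries. Over all 5 days the F test called 209 end peaks (68.3%) beside 71.2% of all merged peaks, and all 28 telomere-annotated ones.

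**Figure D4:**
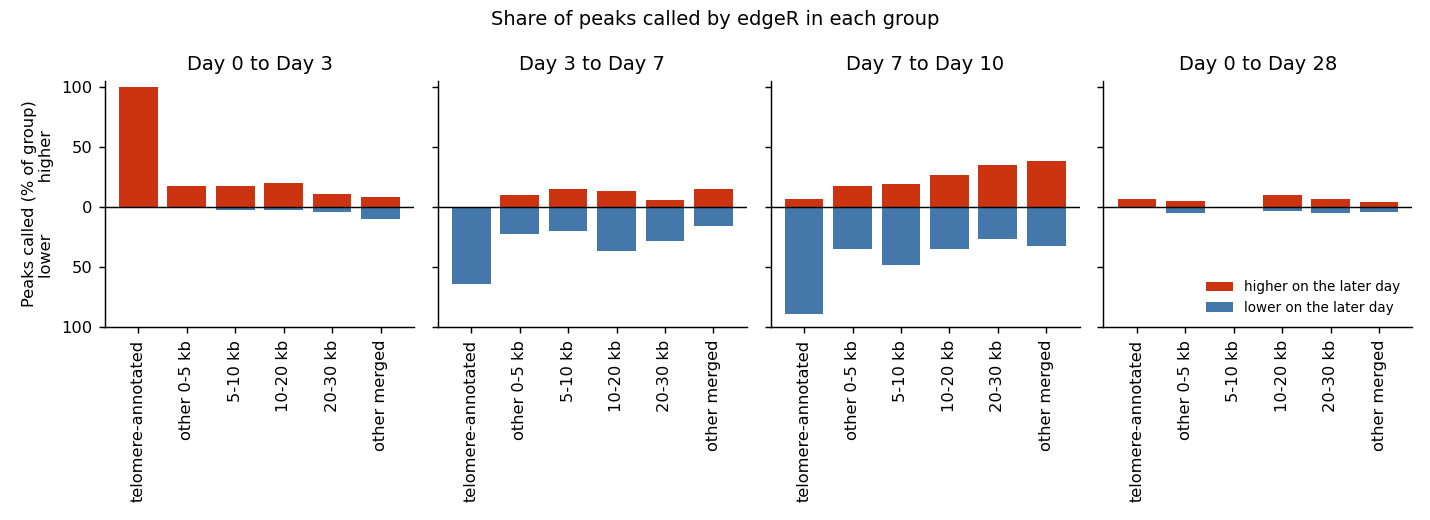
Percent of the peaks of each group (x axis) called by edgeR as higher (red, upward) or lower (blue, downward) on the later day, in 4 comparisons. From Day 0 to Day 3 the red bar of the 28 telomere-annotated peaks reaches 100% and that of the 40 other peaks within 5 kb 17.5%; the bins of 5-10 and 10-20 kb hold 4 of the 28.

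The outermost peak of each end was also followed by itself, with and without a telomere annotation. Of the 32 outermost peaks, 22 rose between Day 0 and Day 3 and 0 fell, with a median of 0.58, where 9.59% of all merged peaks rose and 8.99% fell. The 21 that overlap a telomere all rose, and they are among the 28 telomere-annotated peaks above, so they add no separate observation. Of the 11 that do not overlap one, 1 rose, with a median of 0.09 and a range of -0.14 to 0.58. That 1 was the FET4 peak at the right end of chromosome XIII (chrXIII:914863-915970), named for a low-affinity iron transporter, which rose by 0.57 (adjusted p = 0.000563 by edgeR's quasi-likelihood test). The YAT1 peak at the right end of chromosome I, named for an outer mitochondrial carnitine acetyltransferase, had a similar value of 0.58 and was not called (adjusted p = 0.0876). The 11 outermost peaks without a telomere lie 3103 to 37601 bases from the R64 end, with a median of 11540, and those with one lie at most 6686 bases from it, so distance from the end and the annotation cannot be fully told apart.

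Among the gene families, the seripauperins had 7 end peaks, in the promoters of PAU4, PAU7, PAU10, PAU12, PAU18, PAU20 and PAU24. All 7 had a positive log2 fold change between Day 0 and Day 3, with a median of 0.30, and 3 rose, 6 fell from Day 3 to Day 7, and 3 rose and 1 fell from Day 7 to Day 10. Of all merged peaks 9.59% rose in the first of these comparisons, 17.4% fell in the second, and 70.2% were called in the third. PAU10 (chrIV:1522705-1523222) had 927 and 1001 normalized counts at Day 0, 1296 and 1277 at Day 3, and 1087 and 1053 at Day 7, a rise of 0.39 ± 0.10 (adjusted p = 0.00226 by edgeR's quasi-likelihood test), after which it fell by 0.26. PAU7 (chrI:176620-177823) had 1329 and 1009 at Day 0, 780 and 779 at Day 7, and 1468 and 1987 at Day 10, and rose by 1.20 ± 0.11 after selection ended (adjusted p = 1.28e-06). PAU20 fell by 0.33 in that comparison, so the family did not share a direction after Day 7.

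The flocculins had 6 end peaks of 3 genes, FLO5, FLO9 and FLO10. Between Day 0 and Day 3, 2 rose and 0 fell, between Day 3 and Day 7 3 fell, and between Day 7 and Day 10 3 rose and 2 fell. Calls over all merged peaks were 18.6%, 32.1% and 70.2%, so the last count is near the background. The 3 that fell and then rose lie inside the FLO5 and FLO10 coding sequences, and the same 3 were higher at Day 28 than at Day 0. The shorter peak inside FLO10 held the largest change of any end peak, and its sequence is printed in full to show that it is coding sequence away from the promoter. It has no part in capitals, and FLO10 itself spans 646356 to 649865 on chromosome XI.
FLO10 inner peak, chrXI:648164-648384, plus strand: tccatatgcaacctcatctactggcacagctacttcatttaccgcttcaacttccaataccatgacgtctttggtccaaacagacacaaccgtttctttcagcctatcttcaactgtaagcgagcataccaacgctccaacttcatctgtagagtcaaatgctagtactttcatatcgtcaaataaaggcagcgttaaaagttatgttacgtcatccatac
It had 196 and 174 normalized counts at Day 0, 254 and 303 at Day 3, 92.9 and 108 at Day 7, 339 and 482 at Day 10, and 420 and 385 at Day 28. It fell by 1.46 ± 0.17 from Day 3 to Day 7 (adjusted p = 1.04e-10 by edgeR's quasi-likelihood test), rose by 2.09 ± 0.25 to Day 10 (adjusted p = 7.43e-06), and was 1.13 ± 0.22 higher at Day 28 than at Day 0 (adjusted p = 0.00627), the last of which was not called without replicate 2 of Day 0. Day 7 was the lowest day and did not overlap any other. The longer FLO10 peak (chrXI:646963-647454) moved the same way, with a rise of 1.53 ± 0.13 from Day 7 to Day 10 (adjusted p = 9.76e-07). The FLO10 promoter peak (chrXI:645148-645708) was not called in any comparison, with 1282 and 1170 at Day 0 and 1237 and 1269 at Day 7.

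Other end peaks inside genes were followed as a class. The 21 end peaks that are annotated to exons had 1 rise and 13 falls from Day 3 to Day 7, with a median of -0.42. From Day 7 to Day 10 they had 13 rises and 6 falls, with a median of 0.79. The share called was 66.7% and then 90.5%, beside 32.1% and 70.2% of all merged peaks. The 93 exon peaks elsewhere had 12 rises and 37 falls, with a median of -0.13, and then 50 rises and 31 falls, with a median of 0.42. End peaks at promoters had medians of -0.05 and -0.07. Exon peaks are also low in count, with a median of 728 normalized counts at the ends. The IMD2 peak inside that gene (chrVIII:555221-555451), which encodes an IMP dehydrogenase of GTP synthesis, had 469 and 557 at Day 3 and 211 and 213 at Day 7, and fell by 1.26 ± 0.14 (adjusted p = 7.96e-12 by edgeR's quasi-likelihood test). The YMR307C-A peak, which is annotated to a promoter but lies in part over the cell wall glucanosyltransferase gene GAS1, had 223 and 241 at Day 7 and 581 and 702 at Day 10, a rise of 1.51 ± 0.16 (adjusted p = 3.71e-06), and its log2 fold change from Day 0 to Day 7 was -0.97. Its mean was 492 normalized counts. Other merged peaks under 500 had a median of 0.82 and a 95th percentile of 1.59 from Day 7 to Day 10, so that rise is within their spread. The TDA8 peak inside that gene fell by 0.92 ± 0.15 from Day 0 to Day 7 (adjusted p = 0.000591). Loess offsets, which remove the trend with abundance, took the fall of the shorter FLO10 peak from Day 0 to Day 7 from -0.90 to -0.06 (adjusted p = 0.763 by edgeR), a fall that was also not called without either library of Day 7.

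**Figure D5:**
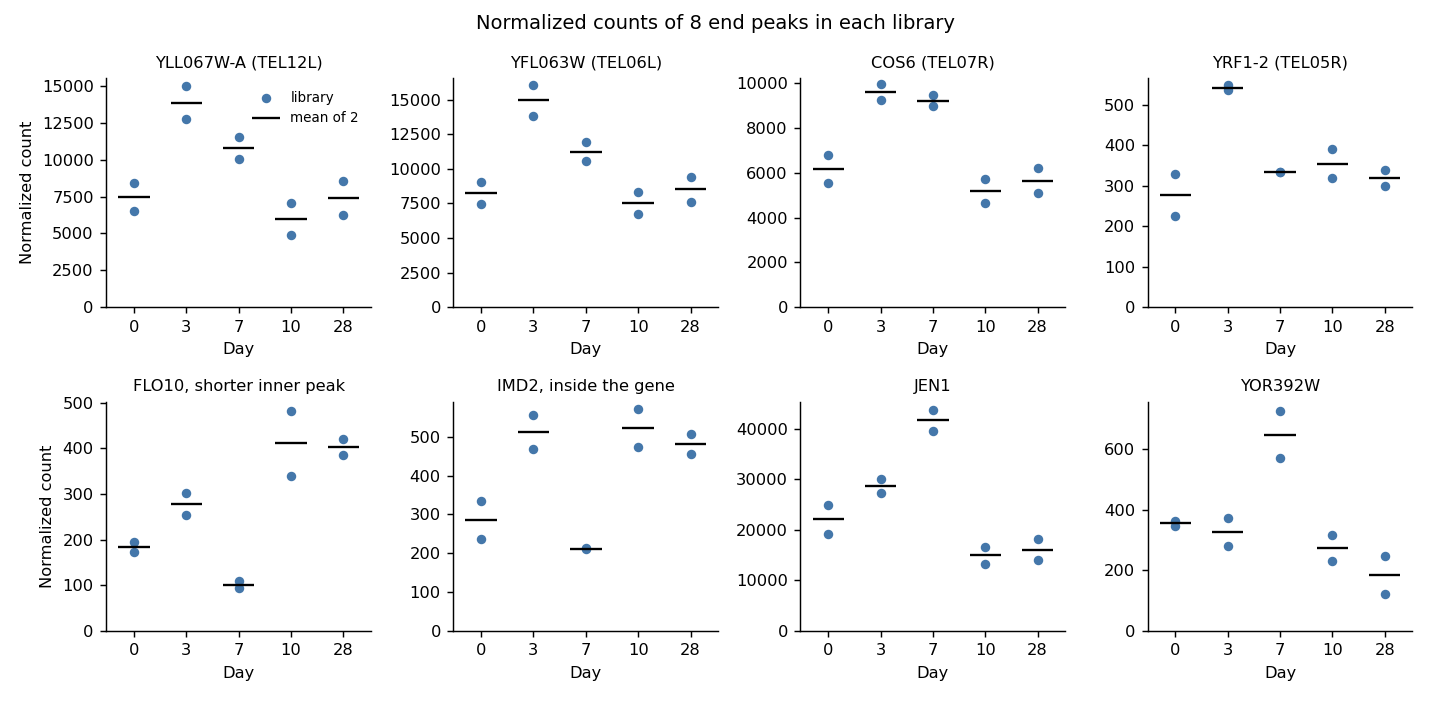
Normalized counts (y axis, from 0) of 8 end peaks in each library by day (x axis); points are libraries and bars the mean of 2. The 4 telomere peaks are highest at Day 3, the JEN1 and YOR392W peaks at Day 7, and the FLO10 and IMD2 peaks inside genes are lowest at Day 7, where FLO10 has 92.9 and 108.

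The JEN1 and STL1 peaks also belong to the exon class, but have high counts and span whole genes, and both fell after Day 7. The JEN1 peak (chrXI:20208-25152) covers the gene of a lactate and pyruvate transporter and had 19217 and 24884 normalized counts at Day 0, 27217 and 30057 at Day 3, 43752 and 39552 at Day 7, and 16643 and 13246 at Day 10. Day 7 lay above every other day, with a rise of 0.55 ± 0.15 from Day 3 (adjusted p = 0.00227 by edgeR's quasi-likelihood test) that was not called without replicate 1 of Day 3 or either library of Day 7, and then fell by 1.44 ± 0.18 to Day 10 (adjusted p = 1.01e-05). The STL1 peak (chrIV:1506480-1510460) covers the gene of a glycerol symporter and went from 34156 and 31901 at Day 7 to 15465 and 10214 at Day 10, and fell by 1.33 ± 0.19 (adjusted p = 2.80e-05). A small peak at the right end of chromosome XV, YOR392W (chrXV:1079403-1079581), had 373 and 281 at Day 3, 725 and 571 at Day 7, 315 and 232 at Day 10, and 122 and 247 at Day 28. It rose by 0.98 ± 0.13 to Day 7 (adjusted p = 2.47e-09), fell by 1.22 ± 0.18 to Day 10 (adjusted p = 3.33e-05), and from Day 0 to Day 28 fell by 0.87, barely past the threshold (adjusted p = 0.0495) and not called without either library of Day 0 or replicate 1 of Day 28. The peak upstream of HPA2, a histone acetyltransferase gene, rose from 1114 and 1062 at Day 3 to 1598 and 1704 at Day 7, by 0.61 ± 0.07 (adjusted p = 1.34e-10).

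Few end peaks fell when selection began. The ZUO1 peak, at the gene of a chaperone bound to ribosomes, had 1522 and 1576 normalized counts at Day 0 and 1261 and 947 at Day 3, and fell by 0.51 ± 0.09 (adjusted p = 2.41e-06 by edgeR's quasi-likelihood test). The MAL33 peak, named for an activator of maltose genes, fell by 0.45 ± 0.13 (adjusted p = 0.00694) and the KRE28 peak, named for a kinetochore subunit, by 0.37 ± 0.10 (adjusted p = 0.00334). None of the 3 was called without replicate 2 of Day 3, and the last 2 were not called after loess offsets. From Day 0 to Day 28 the YCR101C peak fell by 0.59 and the YFR052C-A peak, which lies over the hexokinase gene HXK1, fell by 0.57, both calls that were lost without replicate 2 of Day 0 and the second also without replicate 1 of Day 28. The FLO5 peak inside that gene was 0.88 ± 0.20 higher (adjusted p = 0.0118), which was not called without replicate 2 of Day 0 or replicate 1 of Day 28.

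Among the other subtelomeric gene groups, called members between Day 0 and Day 3 nearly all rose, beside 9.59% of all merged peaks that rose and 8.99% that fell, and the directions were mixed later, beside 14.7% and 17.4% to Day 7 and 37.4% and 32.8% to Day 10. The 8 end peaks of disaccharide and hexose genes had 3 rises and 1 fall from Day 0 to Day 3 and 2 rises and 6 falls from Day 7 to Day 10. IMA5 (chrX:25929-26861), an isomaltase gene, had 3118 and 3470 normalized counts at Day 0, 4197 and 4558 at Day 3, and 4792 and 4684 at Day 7, and was 0.50 ± 0.07 higher at Day 7 than at Day 0 (adjusted p = 0.000167 by edgeR's quasi-likelihood test). The HXK1 promoter peak (chrVI:254575-256792) fell by 0.72 ± 0.12 from Day 7 to Day 10 (adjusted p = 0.000127), from 16476 and 15239 normalized counts to 10079 and 8696. Other merged peaks with mean counts of 8000 or more had a median of -0.68 and a 5th percentile of -1.21 in that comparison. The 15 peaks of phosphate, vitamin and nitrogen uptake had 3 rises and 0 falls, then 3 and 5, and then 2 and 6. The share called was thus near that of all merged peaks in the first comparison (18.6%), above it in the second (32.1%) and below it in the last (70.2%). GIT1 (chrIII:298574-299909), a glycerophosphoinositol permease gene, went from 3036 and 3451 at Day 0 to 5508 and 5031 at Day 3, a rise of 0.68 ± 0.10 (adjusted p = 1.31e-09), and BIO2, the biotin synthase gene, rose by 0.42 ± 0.08 (adjusted p = 3.17e-05) and fell by 0.46 to Day 7. The promoter peak of PHO89, a phosphate transporter gene, which also reaches over MAL33, fell by 0.81 ± 0.13 from Day 7 to Day 10 (adjusted p = 6.86e-05 by edgeR).

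The 6 peaks of iron and siderophore uptake had 3 rises and 0 falls between Day 0 and Day 3. FRE5 (chrXV:1060536-1062247), a ferric reductase gene whose peak also lies over FIT3, had 2377 and 2055 at Day 0, 2732 and 2930 at Day 3, 2204 and 2096 at Day 7, and 3117 and 3369 at Day 10, and was 0.57 ± 0.10 higher at Day 28 than at Day 0 (adjusted p = 0.00335 by edgeR's quasi-likelihood test). Of the 6 peaks of COS and Y′ helicase genes, 2 rose between Day 0 and Day 3, and both are the telomere-annotated COS6 and YRF1-2 peaks. The other 4, at COS4, COS8, COS9 and COS10, had -0.19 to 0.19 in that comparison and none was called. The 6 peaks of aryl alcohol dehydrogenases had 1 rise, at AAD3 (0.45 ± 0.11, adjusted p = 0.00207 by edgeR), and the AAD14 peak at its transcription end rose by 0.52 from Day 3 to Day 7 and fell by 0.50 to Day 10. No merged peak was assigned to the 4 genes of the silent mating type cassettes, and none overlaps them by position. The nearest peaks, looked up after other values were seen, lie beside each cassette. The YCL065W peak (chrIII:14254-14936), 445 bases from HMLALPHA1, had 1257 and 1313 normalized counts at Day 0 and 1398 and 1258 at Day 3, which overlap (0.02 ± 0.09, adjusted p = 0.868 by edgeR's quasi-likelihood test). The peak over a threonine tRNA gene, tT(AGU)C (chrIII:295398-295966), 1077 bases from HMRA1, went from 2254 and 2486 to 3256 and 3399, a rise of 0.46 ± 0.08 (adjusted p = 9.78e-07), and fell by 0.40 to Day 7.

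The genes of the silencing machinery had 13 peaks of 12 genes across the genome, of 27 genes listed. Between Day 0 and Day 3, 0 of the 13 rose and 1 fell, where 9.59% of all merged peaks rose and 8.99% fell. The fall was at HDA3, a subunit of a histone deacetylase (-0.39 ± 0.14, adjusted p = 0.0316 by edgeR's quasi-likelihood test). Other merged peaks of like count (500 to 1000) had a median of -0.20 and a 5th percentile of -0.44, so that fall is within their spread. The SIR2 peak, at the gene of the silencing deacetylase, had 1563 and 1377 normalized counts at Day 0, 1476 and 1433 at Day 3, 1513 and 1558 at Day 7, and 1689 and 1865 at Day 10. It rose by 0.25 ± 0.07 after Day 7 (adjusted p = 0.00291 by edgeR). Other merged peaks of like count (1000 to 2000) had a median of 0.18 and a 95th percentile of 0.68 there, so this rise is within their spread. From Day 7 to Day 10, 4 of the 13 rose and 4 fell, close to the split of all merged peaks (37.4% and 32.8%). Both SIR1 peaks and the RIF2 peak are themselves end peaks. RIF2 (chrXII:1042709-1044030), a limiter of telomere length, had 4331 and 4045 at Day 3, 4773 and 4738 at Day 7, and 3351 and 2944 at Day 10, rose by 0.19 ± 0.06 (adjusted p = 0.0129 by edgeR) and then fell by 0.56 ± 0.07 (adjusted p = 1.51e-05). The 5th percentile of other merged peaks of 2000 to 4000 counts was -0.60 from Day 7 to Day 10, so the RIF2 fall is within their spread. Of the 12 genes of telomere maintenance, 1 had a peak, at STN1, a telomere capping gene. It rose by 0.31 ± 0.09 from Day 3 to Day 7 (adjusted p = 0.00656 by edgeR), when 14.7% of all merged peaks were called higher.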

How the data were processed

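All 10 ATAC-seq libraries, 2 from each of 5 days, were analysed. The authors trimmed reads with Trim Galore 0.5.0, aligned them with Bowtie2 2.2.9 to R64, called the peaks of each day with MACS2 2.1.1, annotated them with HOMER, merged them with bedtools 2.30.0 and counted reads in the merged peaks with featureCounts 1.6.3, and the raw count of each of the 3515 peaks was deposited. The treatment of duplicates and of reads with several alignments is not given in the sources used here, and this bears directly on repeated ends. The deposited normalized counts are a signal the authors made by dividing each raw count by 1 size factor per library (DESeq2 1.30.1). Their fold changes and p-values were not used.

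Raw counts were fitted per pair of days with edgeR 4.0.16 (R 4.3.3, quasi-likelihood test, TMM scaling, Benjamini-Hochberg adjustment over all 3515 peaks, threshold 0.05). The low-count filter removed no peak. The fit was also run on counts simulated with a common dispersion and no trend of fold change with abundance, so that run does not test the calls under such a trend. Alternatives were DESeq2 1.42.0, 1 fit of all 10 libraries, DESeq2 size factors, total counts, loess offsets on abundance (span 0.3, limma 3.58.1), a mean of at least 500 normalized counts, a log2 fold change of at least 0.5, end peaks without a repeated window of 100 bases, windows of 10 and 20 kb, the R64 chromosome end in place of the outermost peak edge, and leaving out each library. Levels are log2(normalized count + 1). Tables and figures were made with Python 3.11.15, pandas 2.3.3, numpy 2.4.6 and matplotlib 3.10.9. Motifs, telomeres and gene positions came from R64 as distributed by RefSeq, and 272 of the 306 end peaks have a gene with an R64 locus tag. Totals of 4748625 to 18693542 counts in peaks per library leave counting error small beside the replicate spread.

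The peaks, the 10 gene lists and the tests were chosen with earlier results of these data known. Named peaks were, per comparison, the 3 largest rises and 3 largest falls among called end peaks whose libraries do not overlap between days, then examples from each gene list, the called ones of largest change first, and the outermost peaks. The grouping by annotated telomere, the printed examples at YFL063W, YOL166W-A, COS6, YFL067W and YBL113C, and the exon and origin groups were added after values were seen. The titles of Day 3, Day 10 and Day 28 mark 1 of the 2 libraries with a p, and of the pairs of days compared only Day 10 and Day 28 share this mark.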

Additional observations from a re-analysis of the deposited data

How the results depend on the processing

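The direction of the median of the end peaks relative to the other merged peaks held under the alternatives run, except in 3 fits that left out a library. Between Day 10 and Day 28 it was 0.023, and turned to -0.039 without replicate 2 of Day 28 and to -0.0061 without replicate 2 of Day 10, in a range over left-out libraries of -0.039 to 0.053. Between Day 0 and Day 28 it was -0.034, and turned to 0.018 without replicate 1 of Day 28, in a range of -0.081 to 0.018. Leaving out a library gave ranges of this difference of 0.095 to 0.16 between Day 0 and Day 3, -0.087 to -0.066 between Day 3 and Day 7, -0.12 to -0.086 between Day 7 and Day 10 and 0.038 to 0.10 between Day 0 and Day 7. Without peaks that hold a repeated window it was 0.097, -0.047 and -0.075 in the first 3 consecutive comparisons. A window of 10 kb gave 0.18 between Day 0 and Day 3, -0.27 between Day 7 and Day 10 and 0.19 between Day 0 and Day 7, a window of 20 kb gave -0.15 and 0.12 in the last pair, and 30000 bases from the R64 chromosome end gave -0.17 and 0.11. Loess offsets gave -0.15 between Day 7 and Day 10.

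Over left-out libraries the percent of end peaks called ran from 10.1% to 27.1% between Day 0 and Day 3 (all merged peaks 3.41% to 22.8%), from 17.3% to 49.7% between Day 3 and Day 7 (11.5% to 40.6%), from 42.5% to 76.1% between Day 7 and Day 10 (47.1% to 80.2%), from 0% to 0.327% between Day 10 and Day 28 (0% to 0.341%), from 14.1% to 66.3% between Day 0 and Day 7 (11.01% to 67.7%) and from 0.654% to 24.8% between Day 0 and Day 28 (0.910% to 21.1%). Requiring a log2 fold change of at least 0.5 left 10.5%, 9.80%, 29.4%, 14.1% and 5.23% in the comparisons with calls, in the order Day 0 to Day 3, Day 3 to Day 7, Day 7 to Day 10, Day 0 to Day 7 and Day 0 to Day 28. The same shares of all merged peaks were 3.13%, 5.12%, 30.4%, 9.70% and 3.76%. One fit of all 10 libraries gave 23.2% between Day 3 and Day 7 (all merged peaks 14.7%) and 17.3% between Day 0 and Day 28 (15.0%), where the window of 10 kb gave 5.45% (8.82%). Between Day 10 and Day 28 DESeq2 gave 3.23% of the end peaks with an adjusted p (all merged peaks 1.55%).

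Among the telomere-annotated peaks, leaving out a library gave 5 to 20 calls between Day 3 and Day 7, 0 to 1 between Day 10 and Day 28, 9 to 28 between Day 0 and Day 7 and 0 to 11 between Day 0 and Day 28. The fit of all libraries gave 6 between Day 3 and Day 7. Between Day 0 and Day 28 total counts, loess offsets and a mean of at least 500 normalized counts each gave 1. Over the alternatives for the named peaks, 313 fits kept the call and its direction, 30 lost the call and 0 changed direction, and a peak that holds a repeated window has no value in the fit without them. On raw counts scaled by each library's total in peaks, the telomere-annotated median stood 0.51 above Day 0 at Day 3 and 0.24 above it at Day 7, and that of the other merged peaks at -0.22 and -0.24. The causes of these shifts were not tested.

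With a replicate block on the p in the titles, Day 10 to Day 28 gave 0% of the end peaks called. The differences between marked and unmarked libraries of these 2 days correlated at -0.66 over the end peaks and -0.67 over all merged peaks. What the mark stands for is not stated in the labels and was not tested. Crossing the marks, an alternative added after seeing the data, called 11.4% of the end peaks, 15.2% of all merged peaks and 11 telomere-annotated ones. That pairing follows the negative correlation seen in these same libraries and is not given by the labels. Its calls therefore cannot show a change between the 2 days. No paired analysis was possible for the other comparisons because their days share fewer than 2 marks.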
